A study of Mus musculus with 12 samples.

Results

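The potassium channel genes of the mouse lateral septum were described across 12 libraries of bulk RNA sequencing, 6 of a saline group and 6 of a CFA group. CFA commonly stands for complete Freund's adjuvant, which is given to bring on persistent inflammation. The genes were taken by symbol: every protein-coding row whose symbol starts with Kcn, which gave 94 of 22046 protein-coding genes, 77 for pore-forming subunits and 17 for auxiliary or regulatory proteins. A further 5 Kcn rows are antisense transcripts and are no members. All libraries carried the labels wild type, brain tissue and day 3, and the saline group is the control. The labels give no strain, sex, age or site of injection and do not say whether each library came from a separate animal, so a p-value reflects only how far these samples scatter, and that scatter may be technical.

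The recovered depth was 33.6 to 38.4 M reads per saline library and 35.5 to 39.2 M reads per CFA library. Lateral septum markers were present in all libraries, with Zic1 at 106 ± 12.0 (saline) and 99.0 ± 18.6 FPKM (CFA) and Trpc4 at 16.5 ± 1.69 and 15.0 ± 1.66 FPKM (each SD, n = 6). Of the 5 markers on that list 5 had a negative log2 fold change (CFA minus saline), with a median of -0.16, and 0 had an unadjusted p under 0.05. Their part in the channel values was not tested. FPKM counts fragments for each kilobase of a gene, relative to library depth, so levels can be set side by side between genes. The FPKM of all genes summed to 263769 to 278085 in saline libraries and 254289 to 276203 in CFA libraries. Levels in different libraries are therefore not on exactly the same scale, and the main fit made no adjustment for this. The tissue was sampled whole, and fewer cells of a type and less RNA per cell cannot be told apart in any value here.

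Potassium channels let potassium leave the cell down its gradient and so set the resting potential, end the action potential and space out firing. Voltage-gated channels open on depolarization, inward rectifiers (Kcnj) hold the resting potential or answer G proteins, tandem-pore channels (Kcnk) carry the leak current, and calcium- or sodium-activated channels (Kcnma1, Kcnn, Kcnt) follow ion entry. Glia use Kcnj10 to take up the potassium that firing neurons release, and epithelial cells of the choroid plexus have channels of their own.

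A gene was tested where at least 6 libraries had 1 FPKM or more, which 68 of the 94 members did. Of these, 61 reached that level in all 12 libraries and 7 in 6 to 11, and each of the 7 did so in at least 3 libraries of either group. Of the other 26, 22 stayed under 1 FPKM in every library and 4, Kcne2 and Kcnj13 among them, reached it in fewer than 6. Kcnj1, the renal outer medullary channel, was listed at 0 in every library. The astrocyte channel gene Kcnj10 had the highest level, at 56.6 FPKM on average over the 12 libraries. It was followed by 2 genes for auxiliary proteins, Kcnip2 (46.5 FPKM), a calcium-binding partner of the transient A-type channels, and Kcnab2 (46.0 FPKM), the cytoplasmic beta subunit of the Shaker channels. The step from Kcnj10 to Kcnip2 was larger than the SD of either over the 12 libraries, while Kcnip2 and Kcnab2 did not differ beyond theirs. Among those that followed were Kcnk1 (28.8 FPKM), a tandem-pore leak channel, and Kcnf1 (27.0 FPKM), a silent subunit that works only together with other channels, and these did not differ from each other beyond their SD. Below Kcnc1 (20.8 FPKM), which lets fast-spiking neurons repolarize quickly, each gene down to the twentieth place was within 1 SD of its neighbour.

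**Figure D1:**
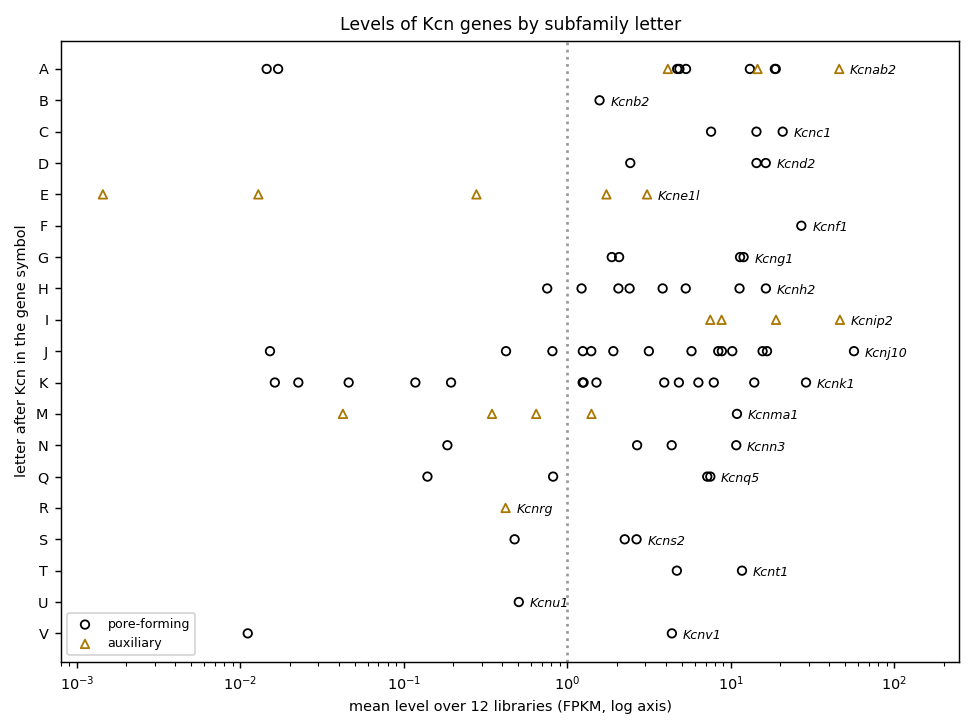
Mean level of 90 of the 94 Kcn genes over 12 libraries in FPKM, on a log axis, in 1 line per letter after Kcn, with circles for pore-forming subunits and triangles for auxiliary proteins. The highest gene drawn for each letter is named, the dotted line marks 1 FPKM, and Kcnj1, listed at 0, is not drawn. The letters A, J and I reach highest, with Kcnab2, Kcnj10 and Kcnip2 at 46.0 to 56.6 FPKM.

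Summed over all members, the saline level was 735 ± 31.8 FPKM and the CFA level 712 ± 34.5 FPKM (each SD, n = 6). These sums were not scaled to the FPKM of all genes, which also varied between libraries. The letter J supplied 18.3% ± 0.750 of the sum in saline and 17.9% ± 0.835 in CFA, and the letter A, with its beta subunits, 18.2% ± 0.444 and 17.8% ± 0.664. The letters I, K and C followed with 11.3%, 9.69% and 7.65% over the 12 libraries. The auxiliary genes made up 21.8% ± 1.05 of the sum in saline and 20.9% ± 0.803 in CFA.

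The comparison of CFA with saline asked whether any channel gene differed at day 3. By limma with Benjamini-Hochberg adjustment over all 13345 genes tested, 0 of the 68 members passed the threshold of 0.05, where 0.03% of all genes did, 0.015% higher and 0.015% lower. At an unadjusted p under 0.05 there were 6 members, Kcna6, Kcnj10, Kcnab2, Kcng4, Kcng2 and Kcnc1, and all 6 were lower in CFA. That is 8.82% of the members tested, beside 7.67% of all genes in either direction and 4.56% lower. The share in either direction is near the background. At that p 0 members were higher, beside 3.11% of all genes. This did not hold in every setting. As TPM, which is FPKM scaled to the same sum in each library, 4 were lower and 1, Kcnt1, was higher. Without saline 1, 6 were lower and 2 higher, and without CFA 2, 5 were lower and 2 higher. With voom on the recovered reads 0 members passed the adjusted threshold and 5 had an unadjusted p under 0.05. The count of 6 was 3 without saline 4, 3 without CFA 1, 10 without CFA 4 (when the share of all genes was 13.8%), and 2, Kcna6 and Kcnj10, with Xist as a covariate. Xist, the transcript of the silenced X chromosome, reached 1 FPKM in 2 saline and 5 CFA libraries. The labels give no sex, and Xist was uneven between the groups, so what goes with it cannot be fully told apart from CFA. The median log2 fold change over the tested members was -0.0043, beside -0.0043 over all genes, with 32 members positive and 36 (52.9%) negative, beside 52% negative over all genes.

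**Figure D2:**
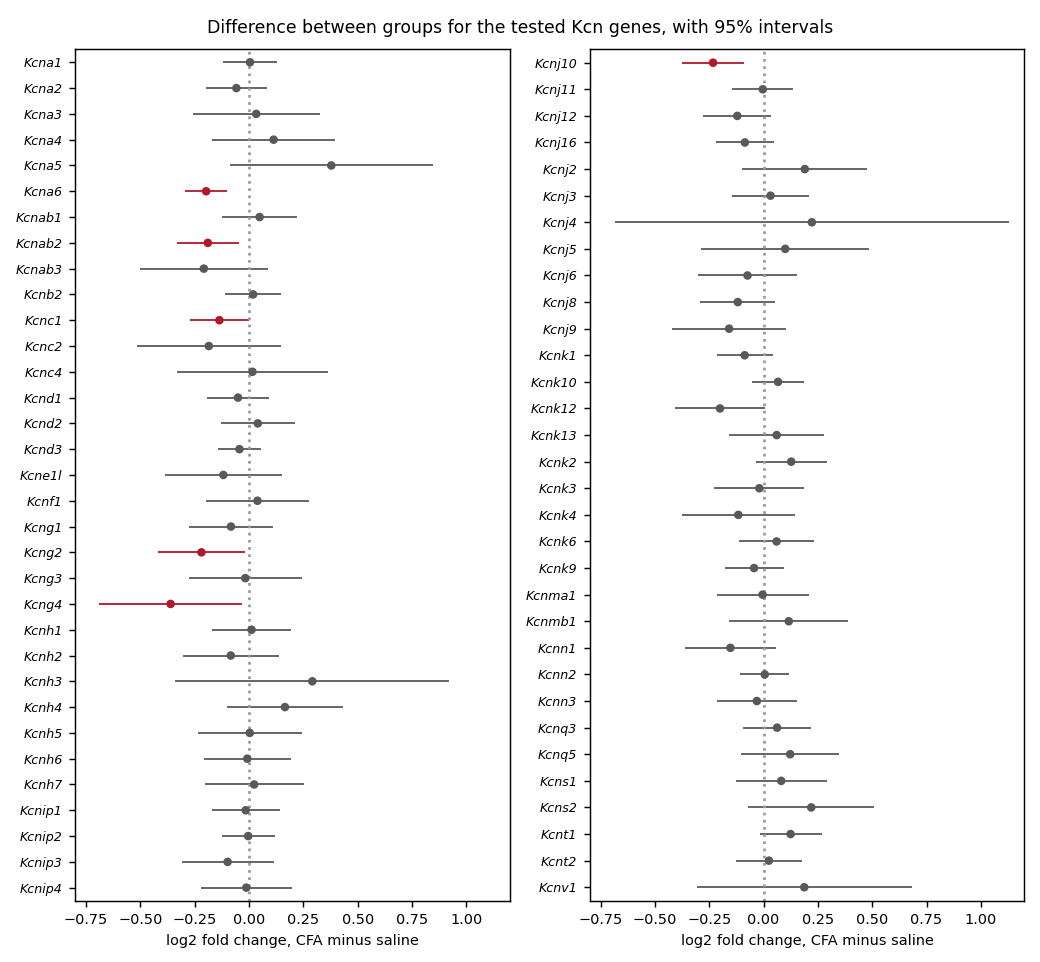
Difference of CFA from saline in log2(FPKM + 1) for 65 of the 68 Kcn genes tested, as points with 95% intervals from limma. Red marks the 6 genes with an unadjusted p under 0.05, all left of the dotted line at 0, and the widest interval is that of Kcnj4, from -0.68 to 1.13.

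Kcna6 had the smallest p of the family. It encodes a Shaker channel of axons, where such channels hold back repetitive firing. The saline libraries read 13.7 FPKM at the lowest, 13.9 at the median and 14.7 at the highest, and the CFA libraries 11.5, 11.7 and 13.7. The groups did not overlap, but the margin was narrow, with CFA 5 at 13.70 FPKM and the lowest saline library at 13.74. Of the 68 members Kcna6 was the 1 whose groups did not overlap, which 0.495% of all genes showed, 0.292% lower and 0.202% higher. The CFA mean differed from the saline mean by -13.6%, with a log2 fold change of -0.20 (95% interval -0.29 to -0.10, limma adjusted p = 0.206). The exact permutation test gave p = 0.00216, the smallest that its 924 assignments allow (two-sided). Any gene whose groups do not overlap gets this p, so it only restates the lack of overlap. It is not adjusted for the choice of Kcna6 by its smallest p. Over the other settings tried, the adjusted p lay between 0.0784, without CFA 5, and 0.487, with Xist as a covariate. Of 8 pan-neuronal markers 8 had a negative value, from -0.13 for Stmn2 to -0.0046 for Snap25, 2 of them at an unadjusted p under 0.05 and 0 past the adjusted threshold, with summed levels of 868 to 1000 FPKM in saline and 834 to 937 in CFA. Their part in the value of Kcna6 was not tested.

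The other Shaker genes had intervals that span 0. Kcna1 and Kcna2, the main axonal channels of this group, had saline levels of 18.6 ± 1.59 and 19.2 ± 1.70 FPKM and CFA levels of 18.6 ± 1.08 and 18.4 ± 1.52 FPKM (each SD, n = 6). Their log2 fold changes were 0.0041 (95% interval -0.12 to 0.13) and -0.06 (-0.20 to 0.08). Kcna3, a channel of T cells and activated microglia, had a saline mean of 5.24 ± 1.14 FPKM and a CFA mean of 5.40 ± 1.31. Kcna5 had the largest positive value in the family, 0.38 (-0.09 to 0.85, limma adjusted p = 0.738), with saline libraries at 2.84 to 6.19 FPKM and CFA libraries at 3.77 to 8.96. The ranges overlapped, and CFA 1 and CFA 6, the libraries with the highest striatal marker sums, lay above every saline library. The Kcna5 value was 0.09 with the striatal covariate, 0.25 without CFA 1 and 0.21 without saline 3 and saline 5. Kcna7 and Kcna10 stayed under 0.13 FPKM in every library.

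Kcnab2, the beta subunit that joins the Shaker channels, was 49.1 ± 3.94 FPKM in saline and 42.9 ± 3.82 in CFA, a difference of -12.5%. In saline the lowest, median and highest libraries read 44.2, 49.6 and 54.5 FPKM, and in CFA 38.3, 43.7 and 48.0. The groups overlapped, with 4 of 6 CFA libraries below every saline library. The log2 fold change was -0.19 (-0.33 to -0.05, limma adjusted p = 0.465; exact permutation p = 0.0216, two-sided), and with Xist as a covariate it was -0.15 (unadjusted p = 0.0814). The other beta subunit genes were Kcnab1 at 0.05 (-0.12 to 0.22) and Kcnab3 at -0.21 (-0.50 to 0.09). Kcnab2 overlaps Nphp4 (2.70 FPKM), and as the use of strand in counting is not given in the sources used here, reads of overlapping genes cannot be told apart.

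Kcnj10 encodes the inward rectifier by which astrocytes and oligodendrocytes clear potassium. The saline libraries read 57.6 FPKM at the lowest, 60.9 at the median and 65.7 at the highest, and the CFA libraries 45.1, 50.9 and 60.1. The groups overlapped: 4 of 6 CFA libraries lay below every saline library, while CFA 4 and CFA 5 did not. The CFA mean differed from the saline mean by -14.8%, with a log2 fold change of -0.23 (-0.38 to -0.09, limma adjusted p = 0.360; exact permutation p = 0.0152, two-sided). Kcnj16, whose product joins Kcnj10 in astrocytes, was 9.11 ± 0.805 FPKM in saline and 8.52 ± 0.630 in CFA, a log2 fold change of -0.09 (-0.22 to 0.05). It was -0.16 (limma adjusted p = 0.555) without saline 3 and saline 5, the libraries with many choroid plexus transcripts. Of 8 astrocyte markers 3 were positive and 5 negative, with summed levels of 725 to 762 FPKM in saline and 619 to 755 in CFA, and the order of the libraries differed between this sum and Kcnj10. The sum rests mostly on Slc1a2 (means of 279 FPKM in saline and 247 in CFA) and Aldoc (239 and 225), so its order need not be that of the other markers. CFA 6 was lowest in both the sum and Kcnj10. CFA 1, at 48.0 FPKM of Kcnj10, had a sum of 755 FPKM, and saline 1, highest in Kcnj10 at 65.7 FPKM, had the lowest saline sum. Of 8 oligodendrocyte markers all were positive, with sums of 783 to 2035 FPKM in saline and 1040 to 2457 in CFA. The part of either cell type in the value of Kcnj10 was not tested.

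The promoters of these genes are shown because Kcna6 and Kcnj10 had the smallest p values of the family. Each is the 250 bases before the annotated start, 5′ to 3′ on the strand of the gene, from RefSeq on GRCm38.p6. Kcna6 lies on the minus strand (chr6:126740675-126740924) and Kcnj10 on the plus strand (chr1:172340960-172341209). Capitals mark a match, on either strand, to GGGCGG (the GC box), TATAAA (the TATA box), TGACGTCA (the cyclic AMP response element) or TAATCC (the core bound by OTX proteins). No 2 of the matches shown overlap.
Kcna6: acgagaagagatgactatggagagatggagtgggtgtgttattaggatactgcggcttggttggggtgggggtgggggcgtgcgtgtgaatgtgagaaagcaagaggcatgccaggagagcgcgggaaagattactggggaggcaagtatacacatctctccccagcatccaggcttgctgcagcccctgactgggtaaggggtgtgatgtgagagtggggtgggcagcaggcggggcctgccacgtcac
Kcnj10: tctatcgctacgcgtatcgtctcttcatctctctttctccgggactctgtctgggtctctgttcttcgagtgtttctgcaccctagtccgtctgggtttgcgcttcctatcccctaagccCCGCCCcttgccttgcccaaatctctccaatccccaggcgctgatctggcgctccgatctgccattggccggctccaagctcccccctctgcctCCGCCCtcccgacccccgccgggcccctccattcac
The window of Kcnj10 held 2 GC boxes and 17 CG pairs, and that of Kcna6 held 8 CG pairs and none of these letters. Among the 69 of 94 members with a promoter in the RefSeq table, 46.4% had a GC box and 2.90% a TATA box, beside 32.7% and 12.4% of the 32851 promoters of the same length in the table. Each member entered with a single promoter, the nearest to its annotated start, which for Kcnip4 lay 239248 bases away. The comparison holds every promoter in the table, so the sets were not formed alike. The cyclic AMP element was in 0 of the 69 and in 1.55% of all, and the OTX core in 2.90% and 6.25%. A match is a run of letters, not a bound site.

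**Figure D3:**
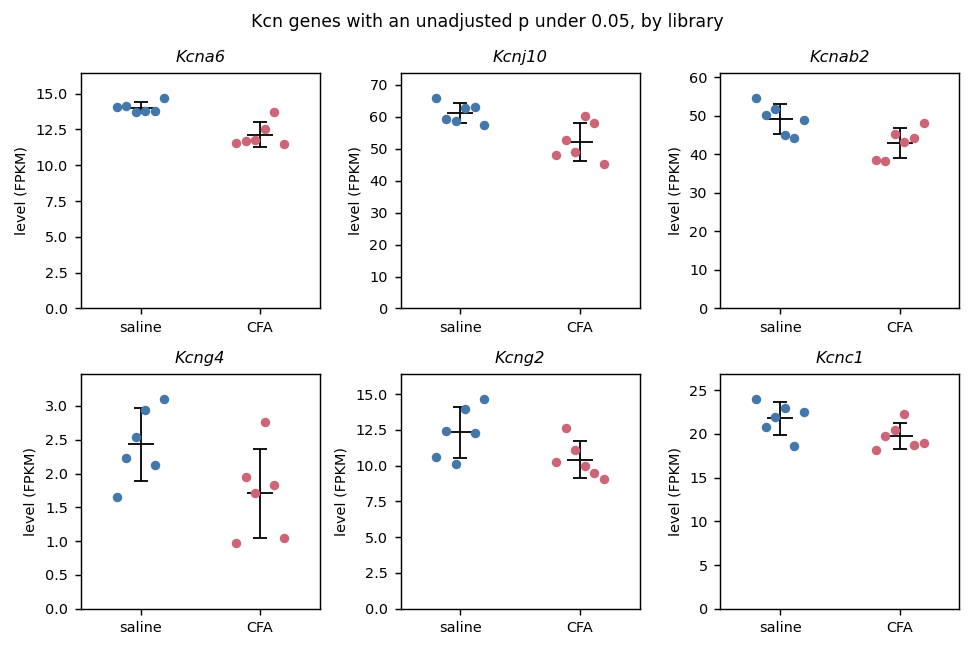
Level in FPKM of the 6 Kcn genes with an unadjusted p under 0.05, 1 point per library, with the mean and SD of each group of 6 as bars and axes that start at 0. For Kcna6 all CFA libraries lie below the saline libraries, and for the other 5 genes the groups overlap.

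Silent subunits of the letter G, which do not conduct alone and change the gating of the channels they join, were negative in 4 of 4 tested members, with a median log2 fold change of -0.15. Kcng4 read 1.66, 2.39 and 3.11 FPKM in saline (lowest, median, highest) and 0.979, 1.77 and 2.77 in CFA. Its log2 fold change was -0.36 (-0.69 to -0.03, limma adjusted p = 0.623), the lowest value of any member, but 4 of 6 CFA libraries lay within the saline range. With voom, which does not add 1 FPKM before taking logs, it was -0.56, and -0.18 once the striatal list mean was a term of the model. Kcng2 was 12.3 ± 1.80 FPKM in saline and 10.4 ± 1.29 in CFA (-0.22, -0.42 to -0.02, limma adjusted p = 0.623). Kcng1 had -0.08 and Kcng3 -0.02, with overlapping groups. The silent subunit genes of the letters F, S and V were positive in 4 of 4 tested members, from 0.04 for Kcnf1 to 0.22 for Kcns2, none with an unadjusted p under 0.05, and Kcnf1 was -0.04 without CFA 3 and -0.0023 without saline 4. Kcns2 was 0.34 without saline 1 (limma unadjusted p = 0.00393) and 0.12 with the striatal covariate.

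The Shaw channels of the letter C, which serve fast firing, were negative in 3 of 4 members. Kcnc1 read 18.6, 22.2 and 24.0 FPKM in saline and 18.2, 19.4 and 22.3 in CFA. The groups overlapped in 5 of 6 CFA libraries, and the log2 fold change was -0.14 (-0.27 to -0.0012, limma adjusted p = 0.649; exact permutation p = 0.0671, two-sided). It was -0.05 with Xist as a covariate. Kcnc2 had -0.19 (-0.52 to 0.15) and Kcnc4 0.02 (-0.33 to 0.36). Of 5 markers of the cholinergic cells of the neighbouring medial septum, 4 were negative, with summed levels of 14.6 to 25.0 FPKM in saline and 11.8 to 20.4 in CFA, and their part in these values was not tested.

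The A-type channels and Kcnq3 had small differences. Kcnd2 and Kcnd3, the main A-type channels of neuronal dendrites, had log2 fold changes of 0.04 (-0.13 to 0.21) and -0.04 (-0.14 to 0.05), and the Kcnd2 value was -0.02 with the striatal covariate. Their calcium-binding partners Kcnip1 to Kcnip4 lay between -0.10 and -0.0040, and Kcnip2, the highest of them, read 42.2 to 49.5 FPKM in saline and 42.4 to 52.9 in CFA. Kcnq3, a subunit of the M-channel that steadies neuronal firing, had 0.06 (-0.10 to 0.22). For Kcnq3, Kcnd2 and Kcnd3 no interval went beyond 0.22 on the log2 scale in either direction. Kcnq1, the channel of heart and inner ear, was at most 0.265 FPKM.

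Ether-a-go-go channels, the letter H, were positive in 5 of 7 tested members, with a median of 0.01. Kcnh2, whose current shapes repolarization in heart and neurons, was highest with 16.8 ± 1.42 FPKM in saline and 16.0 ± 3.22 in CFA (-0.08, -0.31 to 0.14). Channels opened by ions inside the cell differed in sign, and none had an unadjusted p under 0.05. Kcnma1, the large-conductance calcium-activated channel, had -0.0047 (-0.22 to 0.21) and was positive in 10 of 27 other settings, 0.10 with Xist as a covariate among them. Its beta subunit genes were low, and Kcnmb1, the highest, had 0.12 (-0.16 to 0.39) and overlaps Kcnip1. Of the small-conductance channels of the afterhyperpolarization, Kcnn1 had -0.15 (-0.36 to 0.06) and Kcnn2 0.0055 (-0.11 to 0.12). Kcnn3 had -0.03 (-0.21 to 0.15) and turned to 0.03 without CFA 5. The sodium-activated channel gene Kcnt1 was 11.1 ± 0.881 FPKM in saline and 12.3 ± 1.21 in CFA, with 3 of 6 CFA libraries above every saline library (0.12, -0.02 to 0.27, limma adjusted p = 0.709). Its log2 fold change was 0.17 as TPM, where the limma unadjusted p was under 0.05.

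Among the G-protein-gated rectifiers, through which opioid and GABA-B receptors quiet neurons, Kcnj3 had 0.03 (-0.15 to 0.21), Kcnj6 -0.07 (-0.30 to 0.15) and Kcnj9 -0.16 (-0.42 to 0.10). The Kcnj9 value was -0.04 with Xist as a covariate, -0.09 without saline 1 and -0.10 without CFA 2, and Kcnj6 overlaps AC165271.1 (4.27 FPKM). Kcnj3 was the highest at 15.4 ± 0.727 FPKM in saline and 15.9 ± 2.40 in CFA. Kcnj8, the rectifier of pericytes that answers ATP levels, was 1.49 ± 0.122 and 1.31 ± 0.275 FPKM, a log2 fold change of -0.12 (-0.29 to 0.05), which was -0.20 with voom and -0.07 without CFA 2. Its neuronal counterpart Kcnj11 had -0.0036 (-0.14 to 0.14). None of these passed the threshold adjusted or unadjusted.

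Of the leak channels of the letter K, 4 of 9 tested members were positive and 5 negative. Kcnk2, a channel opened by stretch and lipids, read 11.7, 13.4 and 14.2 FPKM in saline and 12.3, 13.9 and 17.0 in CFA (0.13, -0.04 to 0.29). It was 0.04 with the striatal covariate and 0.08 without CFA 1 or without saline 3 and saline 5, and it overlaps the pseudogene Pdcd5-ps (23.3 FPKM). Kcnk12 read 6.18 to 7.72 FPKM in saline and 4.62 to 8.02 in CFA (-0.20, -0.41 to 0.0071, limma adjusted p = 0.663). It was -0.09 with Xist as a covariate and -0.11 with the striatal covariate. Kcnk13, the main leak channel of resting microglia, had a saline mean of 3.81 ± 0.635 FPKM and a CFA mean of 4.02 ± 0.689, with 5 of 6 CFA libraries within the saline range (0.06, -0.16 to 0.28). It turned to -0.05 with Xist as a covariate. Kcnk6 had 0.06 (-0.11 to 0.23), and Kcnn4, the calcium-activated channel of activated microglia, was at most 0.287 FPKM in every library, with 14 to 56 reads. Of 10 microglia markers, 5 were positive and 5 negative, and 3 in each direction had an unadjusted p under 0.05. Ctss, a lysosomal protease, was the 1 marker that passed over all genes, at 23.4 ± 2.04 FPKM (saline) and 32.9 ± 2.75 FPKM (CFA), a log2 fold change of 0.48 (limma adjusted p = 0.0304). Cx3cr1, the fractalkine receptor, had the marker value farthest from 0, -1.41 (limma adjusted p = 0.115). Their part in the values of the microglial channels was not tested.

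Kcne2 and Kcnj13 differed most between libraries. Both are known from the choroid plexus, where Kcnj13 encodes a rectifier of the apical membrane and Kcne2 a small subunit that joins Kcnq1 and other channels. Kcne2 reached 15.9 FPKM in saline 3, was 3.04 in saline 5 and lay between 0.0297 and 0.546 FPKM in the other 10 libraries. Kcnj13 reached 7.04 FPKM in saline 3, was 1.94 in saline 5 and was at most 0.152 FPKM elsewhere, with 0 in CFA 1 and CFA 2. The same 2 libraries stood out in the sum of 8 choroid plexus markers, at 2364 FPKM in saline 3 and 745 in saline 5, against 22.9 to 86.2 FPKM in the others. Neither gene was tested, since only these 2 libraries reached 1 FPKM, and in the other 4 saline libraries Kcne2 overlapped the CFA range of 0.0608 to 0.392 FPKM. No difference between the groups in either gene can be read from 2 libraries. Kcnj13 overlaps Gigyf2 (6.22 FPKM on average). With Kcnj13 at 0 in CFA 1 and CFA 2, no Gigyf2 reads were counted to it there. For the other libraries this was not tested.

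The promoters of this pair are shown because the genes vary together. The windows and capitals are as for Kcna6 above. Kcne2 lies on the plus strand (chr16:92292139-92292388) and Kcnj13 on the minus strand (chr1:87394730-87394979).
Kcne2: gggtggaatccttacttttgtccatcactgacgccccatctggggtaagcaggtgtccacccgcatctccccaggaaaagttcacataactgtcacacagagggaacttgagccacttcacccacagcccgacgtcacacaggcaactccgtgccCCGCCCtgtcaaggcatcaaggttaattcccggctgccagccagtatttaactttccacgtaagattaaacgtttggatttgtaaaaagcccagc
Kcnj13: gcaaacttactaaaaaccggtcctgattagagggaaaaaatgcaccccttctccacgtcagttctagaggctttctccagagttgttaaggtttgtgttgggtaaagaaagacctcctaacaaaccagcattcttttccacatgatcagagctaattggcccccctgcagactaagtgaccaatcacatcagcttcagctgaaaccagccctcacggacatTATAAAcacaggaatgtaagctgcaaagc
Kcne2 has 1 GC box and 9 CG pairs in the window, and Kcnj13 has 1 TATA box and 3 CG pairs, so the pair shared none of the motifs searched.

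**Figure D4:**
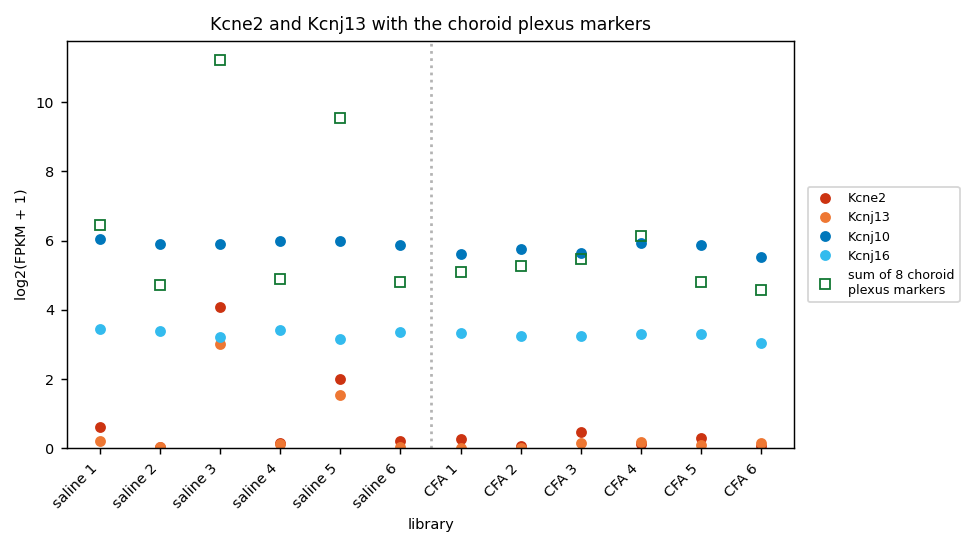
Log2(FPKM + 1) of Kcne2, Kcnj13, Kcnj10 and Kcnj16 in each of 12 libraries (filled circles) with the sum of 8 choroid plexus markers on the same scale (open squares); the dotted line parts saline from CFA. Kcne2, Kcnj13 and the marker sum are high in saline 3 and saline 5 together, while Kcnj10 and Kcnj16 are not.

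A second pattern ran through both groups. Kcnj4, an inward rectifier of forebrain neurons, varied by 7.14 times between its lowest and highest library, the widest range of any tested member. It read 8.45, 11.6 and 28.3 FPKM in saline and 5.03, 21.4 and 35.9 in CFA (lowest, median, highest), and the log2 fold change was 0.22 (-0.68 to 1.13). The 5 highest libraries were saline 1, CFA 1, CFA 3, CFA 5 and CFA 6, at 21.0 to 35.9 FPKM, against 5.03 to 16.8 in the other 7. The same 5 libraries were the highest for 5 further members, among them Kcnh3 (5.93 to 9.94 against 2.33 to 5.27 FPKM), Kcnq3, Kcnj2 and Kcnh4. With Kcnj4 itself that is 6 of 68 members (8.82%), and 165 of 13345 genes (1.24%) showed the same 5. These libraries were read off Kcnj4 and are no group of the study, so no test was made. Kcnv1, a silent subunit of forebrain neurons, also ranged widely, from 2.15 to 7.47 FPKM. Kcnh3 overlaps Mcrs1 (11.9 FPKM).

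Markers of neighbouring tissue followed this pattern only in part. The sum of 11 markers of striatal projection neurons was 330 FPKM in saline 1, 567 in CFA 1, 304 in CFA 5 and 407 in CFA 6, and 191 to 238 FPKM in the other 8 libraries, CFA 3 among them. The sum of 5 markers of cortical and hippocampal excitatory neurons was 101 FPKM in CFA 3, 96.9 in CFA 6, 88.4 in saline 1 and 60.9 in CFA 5, and 4.69 to 59.9 FPKM in the other 8, with CFA 1 at 7.76. Neither sum had the same 5 highest libraries as Kcnj4. Each of the 5 was among the highest 4 of at least 1 of the 2 sums, a reading made once the values were seen. Of the cell type markers tested, only Tac1, a striatal marker, had the same 5 highest. Between the groups, 11 of 11 striatal markers were positive (median log2 fold change 0.45), and 0 passed the adjusted threshold. Of 3 cortical and hippocampal markers tested 1 was positive and 2 negative. The part of these tissues in the pattern was not tested. With the mean log level of the striatal list as a covariate, the log2 fold change of Kcnj4 was -0.22 in place of 0.22 and that of Kcnh3 0.03 in place of 0.29. Kcnv1 then had 0.02 in place of 0.19, and Kcnj2 0.01 in place of 0.19. Kcna6 (-0.19) and Kcnj10 (-0.20) stayed near their values. The striatal setting gave the lowest value of all 27 other settings for Kcnj4, Kcnh3, Kcnv1 and Kcnj2. With the cortical list as the covariate instead, a setting added once the data had been seen, Kcnj4, Kcnh3, Kcnv1 and Kcnj2 stayed positive. In that setting Kcna6 and Kcnj10 kept an unadjusted p under 0.05.

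**Figure D5:**
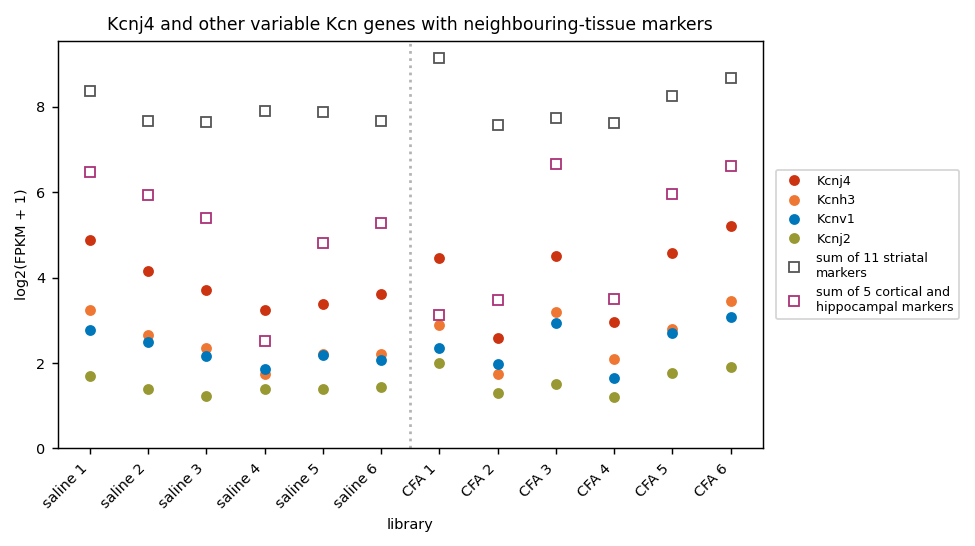
Log2(FPKM + 1) of Kcnj4, Kcnh3, Kcnv1 and Kcnj2 in each of 12 libraries (filled circles) with the sums of 11 striatal and of 5 cortical and hippocampal markers (open squares); the dotted line parts saline from CFA. Kcnj4 is highest in saline 1, CFA 1, CFA 3, CFA 5 and CFA 6.

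Proteins that work with the channels were read from a list chosen along with the channels. Of 26 partner genes 24 were tested, 6 positive and 18 negative, with a median of -0.05, and 0 passed the adjusted threshold. Snx27, which sorts G-protein-gated rectifiers in endosomes, was the 1 partner with an unadjusted p under 0.05. Its mean was 30.3 FPKM in saline and 28.2 in CFA, with a log2 fold change of -0.10 (limma adjusted p = 0.530). Amigo1, a membrane protein that binds voltage-gated channels, had -0.10 and Cntnap1, which keeps axonal channels away from the nodes of myelinated fibres, -0.12.

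Of 11 genes for potassium and chloride transporters 10 were tested, 3 positive and 7 negative, with a median of -0.11 and 0 past the adjusted threshold. The 3 with an unadjusted p under 0.05, Atp1b1 and Slc12a5 among them, were lower in CFA. Atp1b1, the main beta subunit of the sodium pump, was 512 ± 8.82 FPKM in saline and 469 ± 23.7 in CFA (-0.13, limma adjusted p = 0.401), but -0.03 after quantile normalization. Slc12a5, the neuronal cotransporter that keeps chloride low, was 104 ± 4.54 and 96.0 ± 5.25 FPKM (-0.11, limma adjusted p = 0.583).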

How the data were processed

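The aligner HISAT2 2.0.5 and the build mm10 are named per the submitters' processing notes; which counter, strand setting and annotation were applied is not given in the sources used here. FPKM values were deposited by the authors, 1 column per library, beside the gene length in bases. The control columns (CTL) were taken as the saline samples, matched by group and number to the titles. Another table has 6 sample columns that matched no title, and it was left out. FPKM times gene length gave whole steps within each library, so reads were recovered; 100% of values above 0 lay within 0.01 read of a whole number. All 94 members had their ID in GENCODE M21, and 90 had the same coordinates.

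The members, lists, tests and other settings were chosen with earlier results of these data known. Groups follow the sample titles. A gene entered the fit if 6 or more libraries had 1 FPKM or more. The model was limma 3.58.1 (R 4.3.3), applied to log2(FPKM + 1) using trended eBayes; tests were two-sided and Benjamini-Hochberg adjustment ran over all 13345 genes. Fold changes are CFA minus saline on that scale, which understates changes of low genes. The fit was tested on simulated data. The exact permutation test took the difference of mean log2(FPKM + 1) over all 924 assignments of 6 of 12 libraries.

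Named genes were the 12 members with the smallest p, the highest of each letter, the 6 highest and 5 widest-ranging, those without overlap, 17 picked for their cell type or role, and 3 per pathway list; any other member named was picked once its values were known. Results for some genes under these rules are not reported here. Promoters come from RefSeq on GRCm38.p6. Alternatives covered pseudocount, filter, scaling, variance model, voom, replicate block, left-out libraries and covariates. Tables used Python 3.11.15, pandas 2.3.3 and numpy 2.4.6, and figures matplotlib 3.10.9.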

Additional observations from a re-analysis of the deposited data

Results flagged for a closer look

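Single libraries far from the other 5 of their group were found in 8 of 74 checks (37 named members, each group of 6), by Dixon's test at 95%. Chance alone flags about 1 in 20 of independent checks on genes not picked for their spread. The named members include 5 picked for their wide range, Kcne2 and Kcnj13 among them, and the checks share the same libraries. The count of 8 can therefore not be set against that rate. In saline 3, Kcne2 was 15.9 FPKM with the next library at 3.04, Kcnj13 was 7.04 with the next at 1.94, and Kcnk1 was 33.3 with the next at 29.7. In saline 1, Kcnd2 was 19.3 FPKM with the next at 15.9 and Kcns2 was 4.01 with the next at 2.58. In CFA 6, Kcns2 was high at 3.88 FPKM with the next at 2.98, and Kcnj16 was low at 7.31 with the next at 8.47. In CFA 5, Kcnn4 was low at 0.0697 FPKM with the next at 0.226.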

How the results depend on the processing

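In all 27 alternatives 0 members passed the adjusted threshold; the lowest adjusted p of any member was 0.0784, without CFA 5. The number of members with an unadjusted p under 0.05 was 6 in the reported fit, 2 with Xist as a covariate and 3 to 10 with 1 library left out. Kcna6 and Kcnj10 were among them in all 27. The median log2 fold change of the members stayed between -0.0403 (without saline 3 and 5) and 0.0339 (as TPM, when the median of all genes was 0.0328). Of 39 single genes, 27 kept their sign in every alternative in which they were tested, and 12, did not. Kcnip2 was 0.0353 as TPM, 0.0020 with median ratio scaling, 0.0260 after quantile normalization, 0.0088 with voom and 0.0179 without saline 3 and 5. Kcnma1 was 0.0331 as TPM, 0.000907 with median ratio scaling, 0.0064 with voom, 0.103 with Xist and 0.0086 with the cortical covariate. Without saline 3 and 5, Kcna3 was -0.0429 and Kcnk6 -0.0058. With the striatal covariate Kcna3 was -0.0127, Kcnd2 -0.0223, Kcnh2 0.0086, Kcnj4 -0.222, Kcnj6 0.0084 and Kcnn3 0.0269. Kcnn3 was 0.0047 as TPM, and Kcnk13 -0.0473 with Xist. With 1 library left out, Kcnip2 lay between -0.042 and 0.021, Kcnma1 between -0.076 and 0.056, Kcna3 between -0.060 and 0.120, Kcnf1 between -0.044 and 0.095, Kcnj3 between -0.018 and 0.099, Kcnj4 between -0.0089 and 0.514, and Kcnn3 between -0.085 and 0.035. The cause was not tested. Same-numbered libraries of the groups deviated together only weakly (r from -0.0118 to 0.159 over genes, and the best match was the own number for 2 of 6 saline and 3 of 6 CFA libraries). The labels state no pairing by number, and weak correlations over genes cannot exclude one. With a replicate block 0 members passed the adjusted threshold, 9 had an unadjusted p under 0.05 (2 higher, 7 lower), and the median was -0.0043. Members under 1 FPKM rest on few reads, and changes in them would not have been detectable at this depth with the filter used.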
